A study of Mus musculus with 12 samples.

Results

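Single retained introns of mouse colon RNA were examined, that is, introns which one annotated transcript of a gene keeps inside an exon and another transcript of the same gene splices out. They were taken from the authors' deposited event table as the rows of the retained (ON) and spliced (OFF) form of single intron retention, and were paired by gene, start and end. There were 2866 such introns in 1920 genes, out of 19723 ON and OFF pairs of all event types, and each retained form had its spliced form. The retained forms filled 3360 rows and the spliced forms 6768 rows, 1 for each transcript. For comparison, the table held 10709 single skipped exons and 630 groups of introns retained together.

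The 12 libraries were made from colon RNA, with 4 each labelled FGF1, DSS and control. FGF1 stands for fibroblast growth factor 1, a secreted growth factor, and the series describes treating mice that have bowel inflammation with the recombinant protein. DSS is dextran sulfate sodium, a polymer that injures the colon lining of mice. Whether DSS was also given in the FGF1 group is not stated in the labels, nor is any dose, duration, strain, sex or age. Nothing in them says that the 4 libraries of a group came from separate mice, so the p-values below measure only the spread between these libraries, which may be technical.

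Most introns are cut out of a transcript by the spliceosome before the RNA leaves the nucleus. An intron that stays in usually brings a stop codon into the reading frame, and such a transcript may be held in the nucleus or destroyed in the cytoplasm by nonsense-mediated decay. In mammals some introns stay in at high levels in polyadenylated nuclear RNA, and these detained introns are known from genes that encode splicing regulators, such as the CLK kinases and the SR proteins. Other retained introns keep the reading frame open and add amino acids to a protein.

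Retention was taken as the FPKM of the retaining transcripts over the FPKM of retaining plus splicing transcripts, in percent, for each library. FPKM is the number of sequenced fragments of a transcript scaled for its length and for the size of the library, as the authors deposited it for each transcript. The value is therefore a share of assembled transcripts and not a count of reads across the intron, and the read depth behind it is unknown. A library gave a value where both forms summed to at least 1 FPKM. The files never list 1 form of an intron alone in a library, and a transcript listed nowhere in a library was taken at 0 FPKM there. A retention of 0% or 100% therefore always stands for an intron that was not listed in that library, with 1 form set to 0, and not for a measured 0. This was so for 1121 of the 22007 values of the tested introns (5.09%), in 378 introns. An intron was tested where each group had at least 3 such libraries and where mean retention lay between 2% and 98%. That left 1849 introns in 1315 genes. Of the 1017 introns not tested, 690 were too low, 271 had mean retention under 2% and 56 had mean retention over 98%.

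The sequences below are 6 whole introns, shown because they hold the contrast between introns that keep a reading frame open and introns that close it, and because they return in the results. They were read 5′ to 3′ from GENCODE vM21 transcripts (build GRCm38), and each lies between coding exons. In the first 3 the capitals mark the splice ends, since no in-frame stop codon was found in the retaining transcript's own frame. They come from Zfp512b (chr2:181589960-181590052, minus strand), Braf (chr6:39677473-39677571, minus strand) and Ttc13 (chr8:124673528-124673656, minus strand), with lengths of 93, 99 and 129 bases.
Zfp512b: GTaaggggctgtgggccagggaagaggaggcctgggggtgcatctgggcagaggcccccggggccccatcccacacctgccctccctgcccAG
Braf: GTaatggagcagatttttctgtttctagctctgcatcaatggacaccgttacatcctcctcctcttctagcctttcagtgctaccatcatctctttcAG
Ttc13: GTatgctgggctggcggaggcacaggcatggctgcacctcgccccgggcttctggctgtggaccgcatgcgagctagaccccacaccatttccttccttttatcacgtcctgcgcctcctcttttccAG

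In the next 3 the capitals mark the first in-frame stop codon, read in the frame of the splicing transcript. They come from Lypla2 (chr4:135969530-135969600, minus strand, 71 bases), Trpm7 (chr2:126799235-126799312, minus strand, 78 bases) and Lgals4 (chr7:28840611-28840863, plus strand, 253 bases). The stop starts at intron base 13 in Lypla2, base 6 in Trpm7 and base 19 in Lgals4.
Lypla2: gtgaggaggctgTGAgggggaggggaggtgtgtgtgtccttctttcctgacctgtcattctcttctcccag
Trpm7: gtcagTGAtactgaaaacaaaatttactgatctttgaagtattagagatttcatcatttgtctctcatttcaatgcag
Lgals4: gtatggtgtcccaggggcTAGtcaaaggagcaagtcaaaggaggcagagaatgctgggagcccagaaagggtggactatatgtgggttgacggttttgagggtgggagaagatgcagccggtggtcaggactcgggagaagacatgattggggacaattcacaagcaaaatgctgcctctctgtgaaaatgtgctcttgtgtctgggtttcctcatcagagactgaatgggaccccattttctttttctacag

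Across the 2850 introns whose sequence could be read from a retaining transcript, 2766 began with GT and ended with AG, 49 began with GC and ended with AG, and 4 began with AT and ended with AC. The other 31 had other ends, 12 of them gaps of a single base. Introns that begin with ATATCCTT or GTATCCTT carry the 5′ splice site of the minor spliceosome, a separate machinery that removes a small class of introns. Only the strand of the transcript was searched, at the first base of the intron, and 18 of the 2850 (0.632%) matched, 3 with the A and 15 with the G. The genes include Polr2e (an RNA polymerase subunit), Rfc5 (a replication clamp loader subunit) and Lsm5 (an RNA-binding Lsm protein). The 10 tested ones ranged in mean retention between 2.51% in Selenom and 53.6% in Mapk11. The first 20 bases of the 3 introns that start with ATATCCTT are shown to let the shared start be read, with the match in capitals, in Pole2 (chr12:69212272-69212986, minus strand), Tcea2 (chr2:181686247-181686597, plus strand) and Ift80 (chr3:68990964-68994500, minus strand).
Pole2: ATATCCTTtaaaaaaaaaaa
Tcea2: ATATCCTTtgtacagggtat
Ift80: ATATCCTTtaaccctgtata

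The single retained introns were short. Their median length was 233.5 bases (quartiles 104 and 658.5), against 1476 bases (quartiles 511 and 3978) for the 249187 distinct introns annotated in protein-coding genes. Introns of up to 100 bases made up 23.1% of the retained ones and 4.94% of the annotated ones, while introns over 1000 bases made up 15.8% and 60.3%. The longest was the 8856-base intron of Hace1, a ubiquitin ligase gene, with mean retention of 13.3% ± 3.97 (SD, n = 12 libraries). At the other end, 18 members were under 30 bases and 12 were gaps of 1 base. The 6 tested gaps of 1 base lay in Nadk2, Abhd1, Tctn2, Lig1, Ifi30 and Oaz2. Oaz2 encodes an antizyme, which is made by a ribosomal frameshift, and its gap is a place where the annotated models differ by a base. These gaps are kept in the counts because they meet the rule, and their values are not those of an intron.

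**Figure D1:**
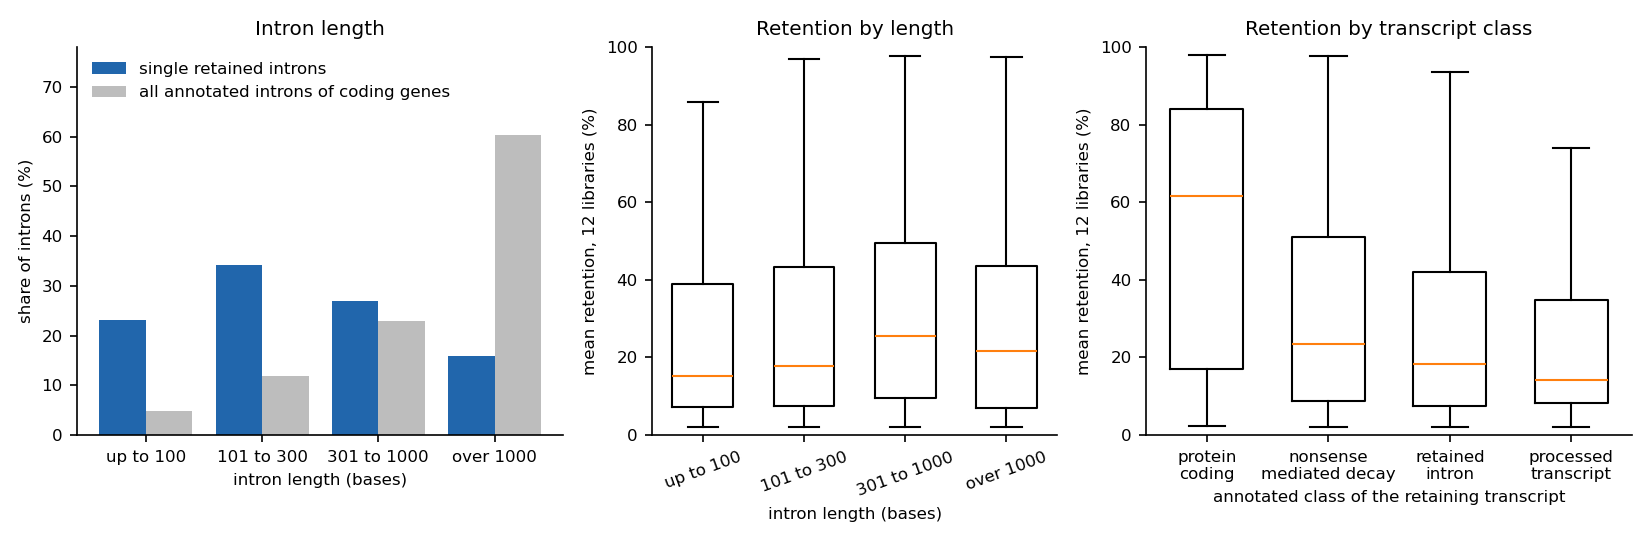
Left, share of introns (%) in 4 length classes for the 2866 single retained introns (blue) and all annotated introns of protein-coding genes (grey). Middle and right, mean retention over 12 libraries (%) of the tested introns by length class and by the annotated class of the retaining transcript (box, quartiles with the median; whiskers, values within 1.5 times the quartile range). The retained introns sit in the short classes, while the median retention is 15.2% for up to 100 bases and 25.5% for over 300 and up to 1000 bases, and 61.6% where the retaining transcript is annotated as protein coding.

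The median retention over tested introns was 19.3% (quartiles 7.88% and 44.1%). By length it was 15.2% for the 454 introns of up to 100 bases, 17.9% for the 632 of over 100 and up to 300 bases, 25.5% for the 488 of over 300 and up to 1000 bases and 21.7% for the 275 longer ones. Across the 1849 introns, Spearman's rho between retention and length was 0.06, and rho between retention and the summed FPKM of both forms was -0.23. Retention and that sum share the same FPKM values, so the second rho is a description only. Mean retention was at most 10% for 593 introns, between 10% and 50% for 862, between 50% and 90% for 312 and above 90% for 82.

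By position, of the 2866 introns, 2451 lay between coding exons of a splicing transcript, 120 in a 3′ UTR and 58 in a 5′ UTR, and 237 had no coding splicing transcript. An in-frame stop codon was found in 2061 (84.4%) of the 2442 coding introns that could be read. The retaining transcript with the highest FPKM was annotated as a retained-intron transcript for 2267 introns, as a target of nonsense-mediated decay for 210 and as protein coding for 206. Of the 146 coding introns with a protein-coding retaining transcript, 95 (65.1%) had a length divisible by 3 and 128 (87.7%) held no in-frame stop. Among the other coding introns, 31.6% had a length divisible by 3 and 11% held no stop. The annotated class itself depends on an open reading frame, so this contrast is partly built in. Median mean retention was 60.1% for the 79 tested coding introns with a protein-coding retaining transcript and 16.7% for the 1566 other coding ones.

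The retaining transcripts with the highest FPKM included those of Bsg, Lgals4, Rpl3, Calm2, Fth1, Ddx5, Rpl27a and Stk25. Bsg, which encodes the membrane glycoprotein basigin, came first. Its 115-base intron (chr10:79710725-79710839, plus strand) is kept by 3 transcripts, led by a protein-coding one. The retaining transcripts averaged 383 ± 29.9 FPKM in FGF1 libraries, 382 ± 66.3 FPKM in DSS libraries and 465 ± 130 FPKM in control libraries (SD, n = 4 each). Retention was 81.3%, 97.7%, 100% and 84.5% in FGF1 libraries, 100%, 79.6%, 100% and 100% in DSS libraries, and 99%, 83.8%, 100% and 100% in control libraries. The groups overlapped, and the retaining form was the larger form of this pair in every library, with the spliced form taken as 0 where the intron was not listed.

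Lgals4 encodes galectin 4, a sugar-binding protein of the gut epithelium. Retention of its intron shown above was 21.5%, 17.1%, 20.3% and 13.9% in FGF1 libraries, 15.8%, 21.0%, 13.9% and 45.8% in DSS libraries, and 15.4%, 14.5%, 25.4% and 19.5% in control libraries. A single DSS library stood above all others and the groups overlapped. Its spliced form was the larger one, at 1460 ± 311 FPKM in FGF1 libraries, 1451 ± 267 FPKM in DSS libraries and 1069 ± 152 FPKM in control libraries.

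Calm2, a calmodulin gene, was among the steadiest. Retention of its 80-base intron (chr17:87435711-87435790, minus strand) averaged 54.6% ± 2.53 in FGF1 libraries, 57.9% ± 2.53 in DSS libraries and 55.5% ± 3.22 in control libraries (SD, n = 4 each). The 232-base intron of Fth1, the ferritin heavy chain gene, averaged 11.6% ± 3.25, 10.1% ± 0.794 and 10.6% ± 1.48 in the same order of groups. Ddx5 encodes an RNA helicase of splicing, and its 1265-base intron averaged 40.4% ± 4.97 in FGF1 libraries, 43.9% ± 11.2 in DSS libraries and 47.0% ± 5.74 in control libraries. The groups overlapped for all 3 introns, and the smallest adjusted p of any comparison was 0.87, for Calm2 in DSS against control (limma).

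Of the 28 introns in genes of cytosolic ribosomal proteins, the building blocks of the ribosome, 19 were tested. Their median retention was 12.1%, against 19.3% over all tested introns, and ranged between 2.88% (Rpl13a) and 97.0% (Rpl3). The 403-base Rpl3 intron (chr15:80081212-80081614, minus strand) was at 97.4% ± 0.510 in FGF1 libraries, 96.5% ± 1.9 in DSS libraries and 97.0% ± 0.738 in control libraries (SD, n = 4 each). This intron counts 1 splicing transcript. A longer Rpl3 intron of 583 bases that starts at the same base has the same retaining transcript and 2 splicing transcripts. It averaged 75.5% ± 3.34 in FGF1 libraries, 76.3% ± 3.88 in DSS libraries and 74.8% ± 3.57 in control libraries. For this longer intron, 1 more annotated splicing transcript was listed in no library and is not counted. Ribosomal protein, calmodulin and ferritin genes have near-identical copies elsewhere in the genome, and how the authors' counting split such reads is not given, so these levels are uncertain.

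The genes known for detained introns in mouse and human cells were described as a group. Of 36 introns in their list, 27 in 18 genes were tested, and 11 of them had mean retention above 50%. Their median retention was 43.8% and their median length 1229 bases, against 19.3% and 226 bases over all tested introns. The list was chosen from knowledge of these genes, and a difference of medians is a description without a test.

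CLK kinases phosphorylate SR proteins and so steer splicing. The 1349-base intron of Clk1 (chr1:58419734-58421082, minus strand) had retention of 19.9%, 38.0%, 31.6% and 44.5% in FGF1 libraries, 52.9%, 32.3%, 43.6% and 96.3% in DSS libraries, and 32.9%, 35.9%, 14.2% and 22.6% in control libraries. The highest value was a DSS library and the groups overlapped. The difference of DSS minus control on the log2 odds scale, explained below, was 2.20 ± 0.94 (SE), with an adjusted p of 0.633 in limma.

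SR proteins bind exons and promote their use. The 1229-base intron of Srsf5 averaged 50.3% ± 4.80 in FGF1 libraries, 49.9% ± 5.02 in DSS libraries and 44.2% ± 13.2 in control libraries (SD, n = 4 each). The 1283-base intron of Srsf6 averaged 37.7% ± 6.87, 37.5% ± 16.1 and 34.6% ± 4.52 in the same groups. The 402-base intron of Eif4a2, a translation initiation factor gene, was the lowest of the list, with 4.27% ± 0.996 over the 12 libraries, and the 2473-base intron of Clk3 was the highest, with 95.2% ± 2.57. For the 2341-base Ccnl2 intron DSS libraries did not overlap with control libraries, with an adjusted p of 0.251 in limma. For the 1302-base intron of Rsrp1 FGF1 libraries did not overlap with control libraries, with an adjusted p of 0.996 in limma. The share of all tested introns without such overlap was not computed.

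**Figure D2:**
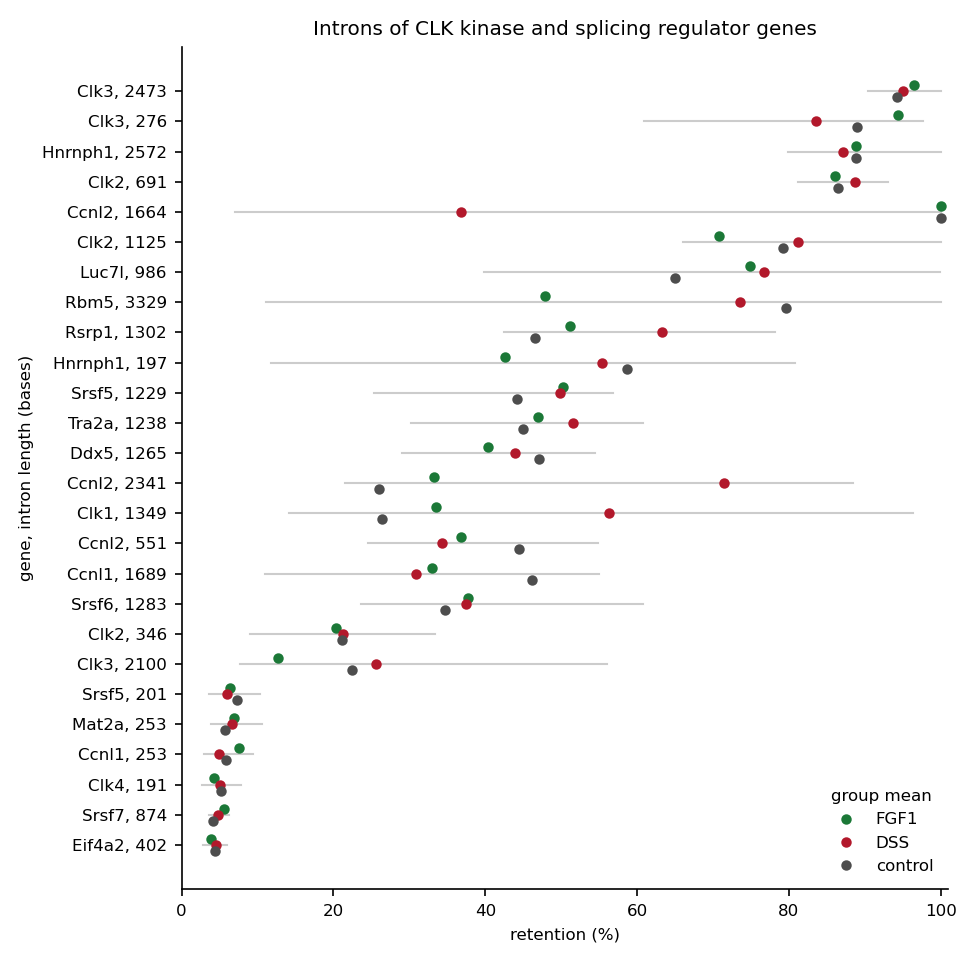
Retention (%) of 26 of the 27 tested introns of CLK kinase and splicing regulator genes, ordered by mean retention. Points are group means (FGF1, DSS, control; n = 4 libraries each) and grey lines run from the lowest to the highest library. Group means lie close together for most introns, and the 2341-base intron of Ccnl2 has a DSS mean of 71.5% that lies apart from those of the other groups. The 9 values of the 1664-base Ccnl2 intron at 100% are libraries that did not list it.

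The level of retention was similar in the libraries of all groups. The median retention of the tested introns in a library averaged 17.6% ± 0.54 in the FGF1 group, 17.2% ± 2.60 in the DSS group and 17.2% ± 1.14 in the control group (SD, n = 4 each). The lowest and the highest library were both DSS libraries, at 14.6% and 20.5%. Retaining transcripts took 2.51% ± 0.0873 of all listed FPKM in FGF1 libraries, 2.49% ± 0.172 in DSS libraries and 2.43% ± 0.213 in control libraries. These differences are smaller than the spread within the DSS group.

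**Figure D3:**
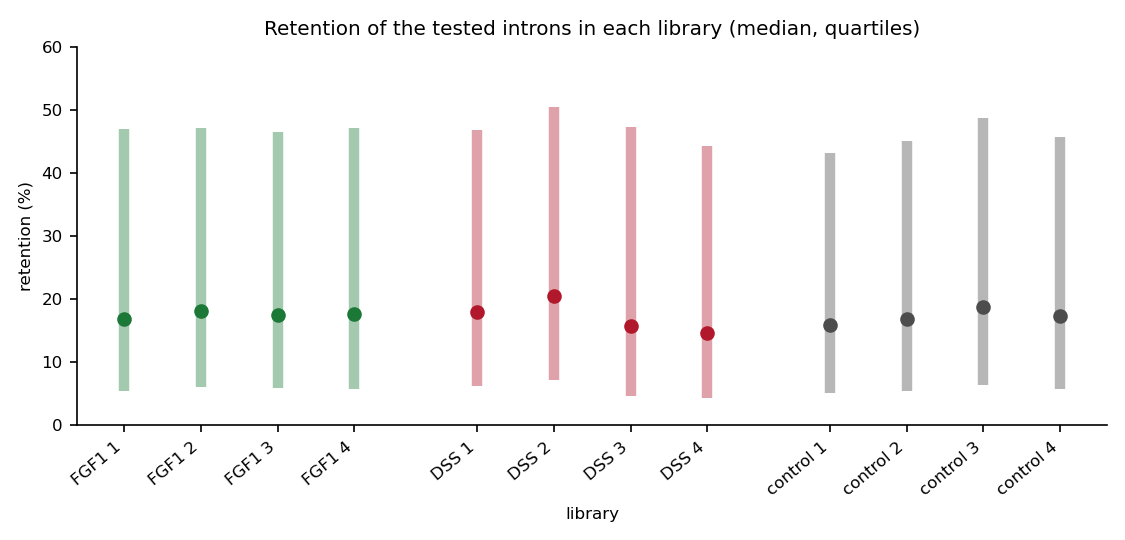
Retention (%) of the tested introns in each of the 12 libraries (points, median; bars, quartiles), with FGF1, DSS and control libraries from left to right. All medians lie between 14.6% and 20.5%, and both extremes are DSS libraries.

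The libraries differed in other respects. The number of introns with a listed event was 2323 to 2372 in FGF1 libraries, 2144 to 2373 in DSS libraries and 2375 to 2449 in control libraries. Markers of smooth muscle (12 of 12 listed), as the mean of log2(FPKM + 1), ranged between 5.72 and 8.34 in FGF1 libraries, 4.80 and 6.57 in DSS libraries, and 7.01 and 8.66 in control libraries. Markers of fibroblasts and matrix (7 of 7 listed) ranged between 3.30 and 4.74 in FGF1 libraries, 1.38 and 3.40 in DSS libraries, and 4.77 and 5.48 in control libraries. Markers of leukocytes (8 of 8 listed) ranged between 2.89 and 4.34, 2.38 and 3.07, and 4.61 and 5.57 in the same groups. Epithelial markers (6 of 6 listed) were at 8.94 to 9.46 in all libraries and goblet cell markers (6 of 6 listed) at 7.89 to 8.96, and none of these markers was at 0 in any library. With the smooth muscle score added to the model the count of called introns was 0 in each comparison. It was 0 without the score as well, so this count cannot show a part of smooth muscle. The score also differed between DSS and control libraries without overlap. The part of any cell type in the retention results was not tested. In such bulk samples, fewer cells of a type and less RNA per cell cannot be told apart.

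Each comparison was made intron by intron, on the log2 odds of retention, log2((r + 0.02)/(1 - r + 0.02)) with r the retained share, using limma over all 12 libraries. P-values were adjusted by Benjamini and Hochberg over all 8681 tested pairs of every event type, and a pair was called at an adjusted p under 0.05. Group means are means over the libraries with a value.

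In DSS against control, no single retained intron was called. In limma 0 of 1849 introns passed, while 107 (5.79%) had an unadjusted p under 0.05, and no other tool was run. Leaving out 1 library gave 5 calls without the third DSS library, 2 without the second control library, 1 without each of the other DSS libraries or the third FGF1 library, and 0 otherwise. Over all pairs 1 of 8681 (0.0115%) was called with every library and 14 of 8868 without the third DSS library. With 1 library left out the calls over all pairs ranged between 2 and 14. Of the 8681 pairs, 647 (7.45%) had an unadjusted p under 0.05. The 95% interval of the difference reached a median of 1.26 to either side on the log2 odds scale. The interval lay within 2 log2 units of 0 for 1089 introns (58.9%) and within 1 unit for 322 (17.4%), so moderate changes of most introns were not detectable in these libraries.

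The 10 introns with the smallest unadjusted p in this comparison are described next, and none of them was called. Zfp512b, a zinc finger gene, came first with its 93-base frame-keeping intron. Retention was 81.7%, 100%, 100% and 98% in FGF1 libraries, 75.7%, 4.63%, 2.34% and 4.28% in DSS libraries, and 97.6%, 97.6%, 98.8% and 100% in control libraries. All DSS libraries lay below all libraries of the other groups, and 1 of them lay far above the other three. The retaining form was at 3.08 FPKM in FGF1, 0.848 FPKM in DSS and 3.63 FPKM in control on average, and the spliced form at 0.149, 2.07 and 0.0503 FPKM. The difference of DSS minus control was -7.61 ± 1.28 on the log2 odds scale (SE), with an adjusted p of 0.186 in limma. For FGF1 minus DSS it was 7.2 ± 1.28 (SE), with an adjusted p of 0.0992. With listed introns only, Zfp512b could not be fitted. With the unlisted form at 0 and without the first DSS library the adjusted p was 0.00332 for DSS against control and 0.00342 for FGF1 against DSS.

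Ccnl2 encodes cyclin L2, a partner of kinases that act on splicing factors. Its 2341-base intron (chr4:155817988-155820328, plus strand) was retained at 26.8%, 44.1%, 31.2% and 30.8% in FGF1 libraries, 83.2%, 88.4%, 46.1% and 68.2% in DSS libraries, and 21.5%, 30.6%, 25.7% and 26.2% in control libraries. All DSS libraries were above all others. The difference of DSS minus control was 2.89 ± 0.55 on the log2 odds scale (SE), with an adjusted p of 0.251 in limma. The retaining form averaged 7.08 FPKM in DSS and 11.4 FPKM in control, while the spliced form averaged 4.11 FPKM in DSS and 32.9 FPKM in control. Without the third DSS library the adjusted p was 0.00842. A 551-base Ccnl2 intron that starts at the same base has the same retaining transcript but another spliced form. Its retention averaged 34.25% ± 11.3 in DSS and 44.4% ± 9.24 in control libraries, and the groups overlapped. That spliced form averaged 16.5 FPKM in DSS and 14.5 FPKM in control, so the direction depends on which spliced form is counted. A 1664-base intron of the same gene, in a 3′ UTR, stood at 100% in every FGF1 library and every control library, and at 7.03%, 26.9%, 100% and 13.5% in DSS libraries. In the 9 libraries at 100% it was not listed and its spliced form was taken as 0. Its mean retention was 78.95% over the 12 libraries and 15.8% over the libraries that list it, which are all DSS libraries, so that the groups could not be compared on listed values. With the unlisted form at 0, its adjusted p for FGF1 against DSS was 0.418 in limma, and 3.62e-06 without the third DSS library.

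Rnpepl1 encodes an aminopeptidase-like protein. Its 200-base intron (chr1:92916947-92917146, plus strand) was retained at 56.6%, 68.8%, 21.4% and 93.7% in FGF1 libraries, 94.5%, 89.1%, 89.6% and 90.6% in DSS libraries, and 46.1%, 29.3%, 16.9% and 43.6% in control libraries. DSS libraries were above control libraries without overlap, and FGF1 libraries spread over both. The difference of DSS minus control was 4.09 ± 0.90 (SE, log2 odds), with an adjusted p of 0.254 in limma. An 811-base intron of the gene rests on the same transcripts and has the same values. With only the DSS and control libraries in the fit, the adjusted p was 0.0227.

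Lrrc45 encodes a protein that links centrosomes. Its 486-base intron was retained at 49.7%, 100%, 100% and 53.7% in FGF1 libraries, 100% in each DSS library, and 56.8%, 58.3%, 62.4% and 49.7% in control libraries. The intron was not listed in any DSS library or in the FGF1 libraries at 100%, where the spliced form was taken as 0, and the spliced form averaged 7.11 FPKM in control libraries. With listed introns only it could not be fitted. The adjusted p of DSS against control was 0.254 in limma, and 0.000324 with only the DSS and control libraries in the fit.

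Lypla2 encodes a thioesterase that takes fatty acids off proteins. Retention of its 71-base intron was 56.0%, 52.4%, 50.3% and 45.9% in FGF1 libraries, 38.8%, 44.5%, 48.0% and 42.8% in DSS libraries, and 59.1%, 62.2%, 58.4% and 54.8% in control libraries. DSS and control libraries did not overlap, and FGF1 libraries overlapped with both. The difference of DSS minus control was -0.85 ± 0.20 (SE, log2 odds), with an adjusted p of 0.254 in limma.

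Tagln encodes transgelin, an actin-binding protein of smooth muscle. Its 364-base intron was retained at 2.92%, 2.76%, 2.12% and 3.22% in FGF1 libraries, 4.77%, 4.34%, 7.86% and 6.42% in DSS libraries, and 3.00%, 3.05%, 2.34% and 2.79% in control libraries. Each DSS library was above each other library. The spliced form averaged 602 FPKM in FGF1, 228 FPKM in DSS and 771 FPKM in control libraries, and the retaining form 15.7, 13.4 and 21.0 FPKM. Tagln is itself one of the smooth muscle markers that were low in DSS libraries. The difference of DSS minus control was 0.74 ± 0.18 (SE, log2 odds), with an adjusted p of 0.254 in limma.

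In the remaining introns of the 10 DSS and control libraries did not overlap either. Choosing introns by the smallest p in these same libraries largely brings this about. Capn15, a calpain-like protease gene, averaged 79.4% ± 10.8 in DSS and 35.6% ± 19.2 in control libraries (79-base intron). Rab4b, a small GTPase of endosomes, averaged 49.0% ± 13.2 in DSS and 17.5% ± 9.40 in control libraries (264-base intron). Trpm7, an ion channel with a kinase domain, averaged 0.964% ± 1.70 in DSS and 6.91% ± 1.60 in control libraries (SD, n = 4 each), on a retaining form of at most 0.392 FPKM in the mean of any group.

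**Figure D4:**
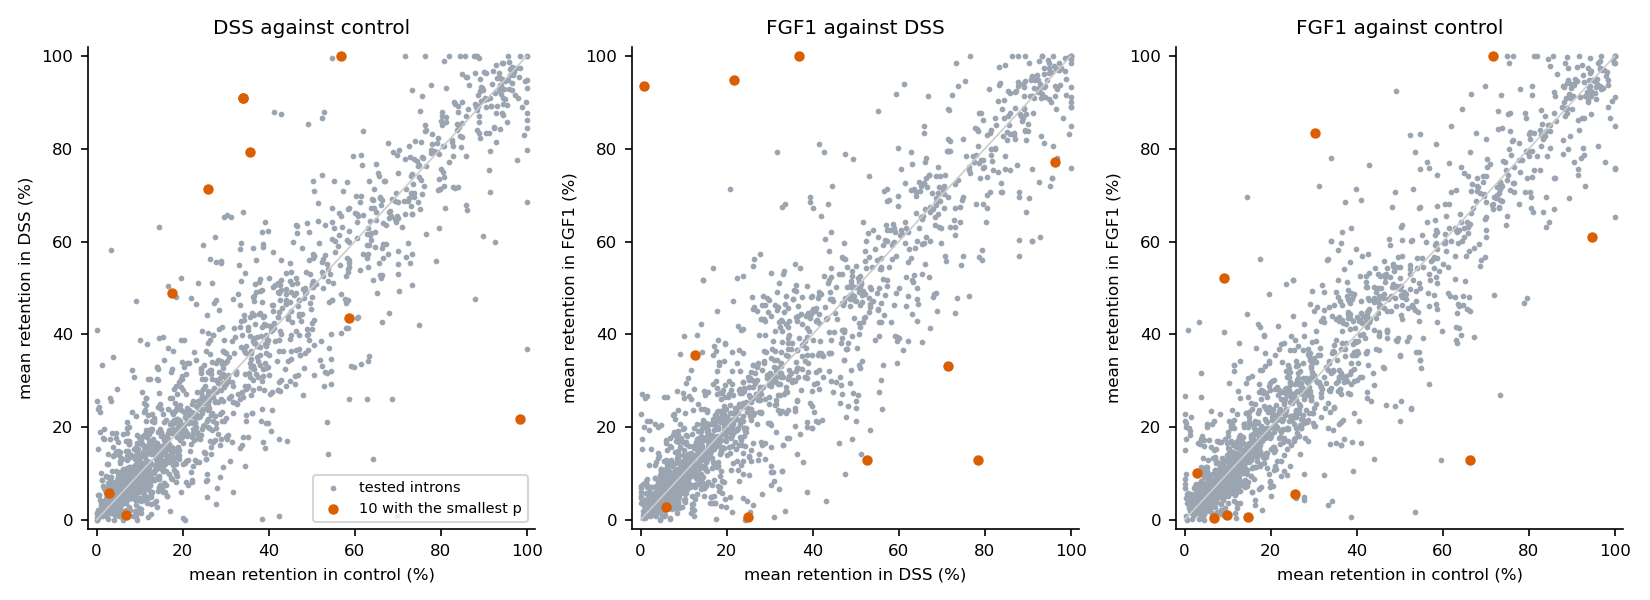
Mean retention (%) of each tested intron in the first-named group (vertical axis) and in the second-named group (horizontal axis) of each comparison, with the 10 introns of smallest unadjusted p in orange. The points lie along the diagonal. The orange points farthest from it include Zfp512b at 21.7% in DSS and 98.5% in control.

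In FGF1 against DSS, no single retained intron was called either. In limma 0 of 1849 passed and 97 (5.25%) had an unadjusted p under 0.05. Leaving out 1 library gave 3 calls without the third DSS library, 1 without each of the other DSS libraries or the second control library, and 0 otherwise. Over all pairs 6 of 8681 (0.0691%) were called with every library and 14 of 8868 without the third DSS library. With 1 library left out the calls over all pairs ranged between 1 and 14. Of the 8681 pairs, 515 (5.93%) had an unadjusted p under 0.05. This comparison shares the DSS libraries with the one before, and Zfp512b, Ccnl2 and Tagln are among the 10 smallest p of both.

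Abca2, a lipid transporter gene, had the smallest p. Its 73-base intron (chr2:25446542-25446614, plus strand) was retained at 0.0%, 0.0%, 1.42% and 1.39% in FGF1 libraries, 33.1%, 19.4% and 22.4% in the 3 DSS libraries with a value, and 20.8%, 18.2%, 6.01% and 13.6% in control libraries. FGF1 libraries lay below all others, and the intron was not listed in the first and second of them. The retaining form was low in every group, at 0.00969 FPKM in FGF1, 0.369 FPKM in DSS and 0.350 FPKM in control on average. The difference of FGF1 minus DSS was -3.74 ± 0.62 (SE, log2 odds), with an adjusted p of 0.0843 in limma, and 0.0329 with a prior variance that does not depend on the level.

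Phtf1 followed with a 966-base intron. Retention was 5.16%, 3.85%, 24.3% and 18% in FGF1 libraries, 75.5%, 79.6%, 67.3% and 91.3% in DSS libraries, and 19.0%, 90.1%, 71.7% and 57.5% in control libraries. FGF1 and DSS libraries did not overlap, while control libraries ranged over most of the scale. The difference of FGF1 minus DSS was -4.75 ± 1.01 (SE, log2 odds), with an adjusted p of 0.266 in limma.

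Hps4 encodes a subunit of a complex needed for lysosome-related organelles. Its 394-base intron was retained at 48.9%, 37.9%, 28.3% and 26.7% in FGF1 libraries, 11.5%, 16.9%, 14.3% and 7.68% in DSS libraries, and 38.5%, 29.9%, 31.2% and 24.2% in control libraries. All DSS libraries were below all others. The adjusted p was 0.397 in limma for FGF1 against DSS and 0.369 for DSS against control.

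Fn1 encodes fibronectin, a matrix protein. Its 626-base intron was retained at 95.3%, 95.7%, 92.2% and 91.0% in FGF1 libraries, 0.139%, 1.5% and 0.751% in the 3 DSS libraries with a value, and 97.9%, 0.232%, 90.7% and 90.7% in control libraries. A single control library was at the level of DSS libraries. The retaining form averaged 41.0 FPKM in FGF1, 0.0259 FPKM in DSS and 31.3 FPKM in control libraries, and the adjusted p for FGF1 against DSS was 0.33 in limma. Without the second control library it was 7.56e-05, and with only the FGF1 and DSS libraries in the fit 0.000122. Pkn3, a protein kinase gene, averaged 77.2% ± 10.05 in FGF1 and 96.5% ± 4.15 in DSS libraries (503-base intron; SD, n = 4 each).

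In FGF1 against control, no single retained intron was called. In limma 0 of 1849 passed and 69 (3.73%) had an unadjusted p under 0.05. Leaving out 1 library gave 1 call without the second control library, the third control library or the third FGF1 library, and 0 otherwise. Over all pairs 2 of 8681 (0.023%) were called with every library. Without those 3 libraries in turn the calls over all pairs were 5 of 8721, 11 of 8698 and 6 of 8720. Of the 8681 pairs, 436 (5.02%) had an unadjusted p under 0.05. The introns of Abca2 and Trpm7 are among the 10 smallest p here, and their values are given above.

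Wdr83, a WD-repeat protein gene, had the smallest p, and is among the 10 of FGF1 against DSS too. Its 282-base intron (chr8:85079838-85080119, minus strand) was retained at 5.26%, 11.9%, 14.7% and 19.4% in FGF1 libraries, 35.8%, 75.8%, 30.4% and 69.0% in DSS libraries, and 61.3%, 61.2%, 71.8% and 70.8% in control libraries. FGF1 libraries lay below all others. The difference of FGF1 minus control was -3.64 ± 0.64 (SE, log2 odds), with an adjusted p of 0.332 in limma. A neighbouring 81-base intron, whose splicing transcripts are those that retain the first, averaged 52.1% ± 17.3 in FGF1, 22.4% ± 14.6 in DSS and 9.25% ± 0.896 in control libraries (SD, n = 4 each).

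Braf encodes a kinase of the MAPK cascade, which acts below FGF receptors. Its 99-base frame-keeping intron was retained at 0.304%, 0.83%, 1.1% and 1.92% in FGF1 libraries, 1.23%, 1.7%, 3.9% and 3.57% in DSS libraries, and 14.7%, 9.16%, 7.65% and 7.67% in control libraries. These values compare 1 retaining with 1 splicing transcript, and other transcripts of the gene do not enter them. Control libraries were above all others. The difference of FGF1 minus control was -2.08 ± 0.45 (SE, log2 odds), with an adjusted p of 0.428 in limma, on a retaining form of 0.0267 FPKM in FGF1 and 0.315 FPKM in control on average.

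Ttc13, the third frame-keeping intron shown above, was retained at 9.42%, 12.5%, 11.7% and 6.90% in FGF1 libraries, 5.61%, 7.40%, 4.74% and 10.3% in DSS libraries, and 3.77%, 5.67%, 0.759% and 1.49% in control libraries. FGF1 libraries were above control libraries without overlap, and the adjusted p was 0.749 in limma. Gas5, a noncoding host gene of small nucleolar RNAs, averaged 83.5% ± 8.15 in FGF1 and 30.4% ± 18.6 in control libraries. Kifc2, a kinesin gene, averaged 61.0% ± 29.98 in FGF1 and 94.7% ± 0.832 in control libraries (109-base intron; SD, n = 4 each). Akap8l, which encodes a nuclear scaffold protein, averaged 5.48% ± 1.52 in FGF1 and 25.7% ± 14.3 in control libraries. The 779-base intron of Rnpepl1 was at 100% in every FGF1 and every DSS library and averaged 71.8% ± 22.8 in control libraries, where the second library was at 100%. The intron was not listed in the 9 libraries at 100%. Its adjusted p for FGF1 against control was 0.726 in limma, and 0.00139 without that control library.

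**Figure D5:**
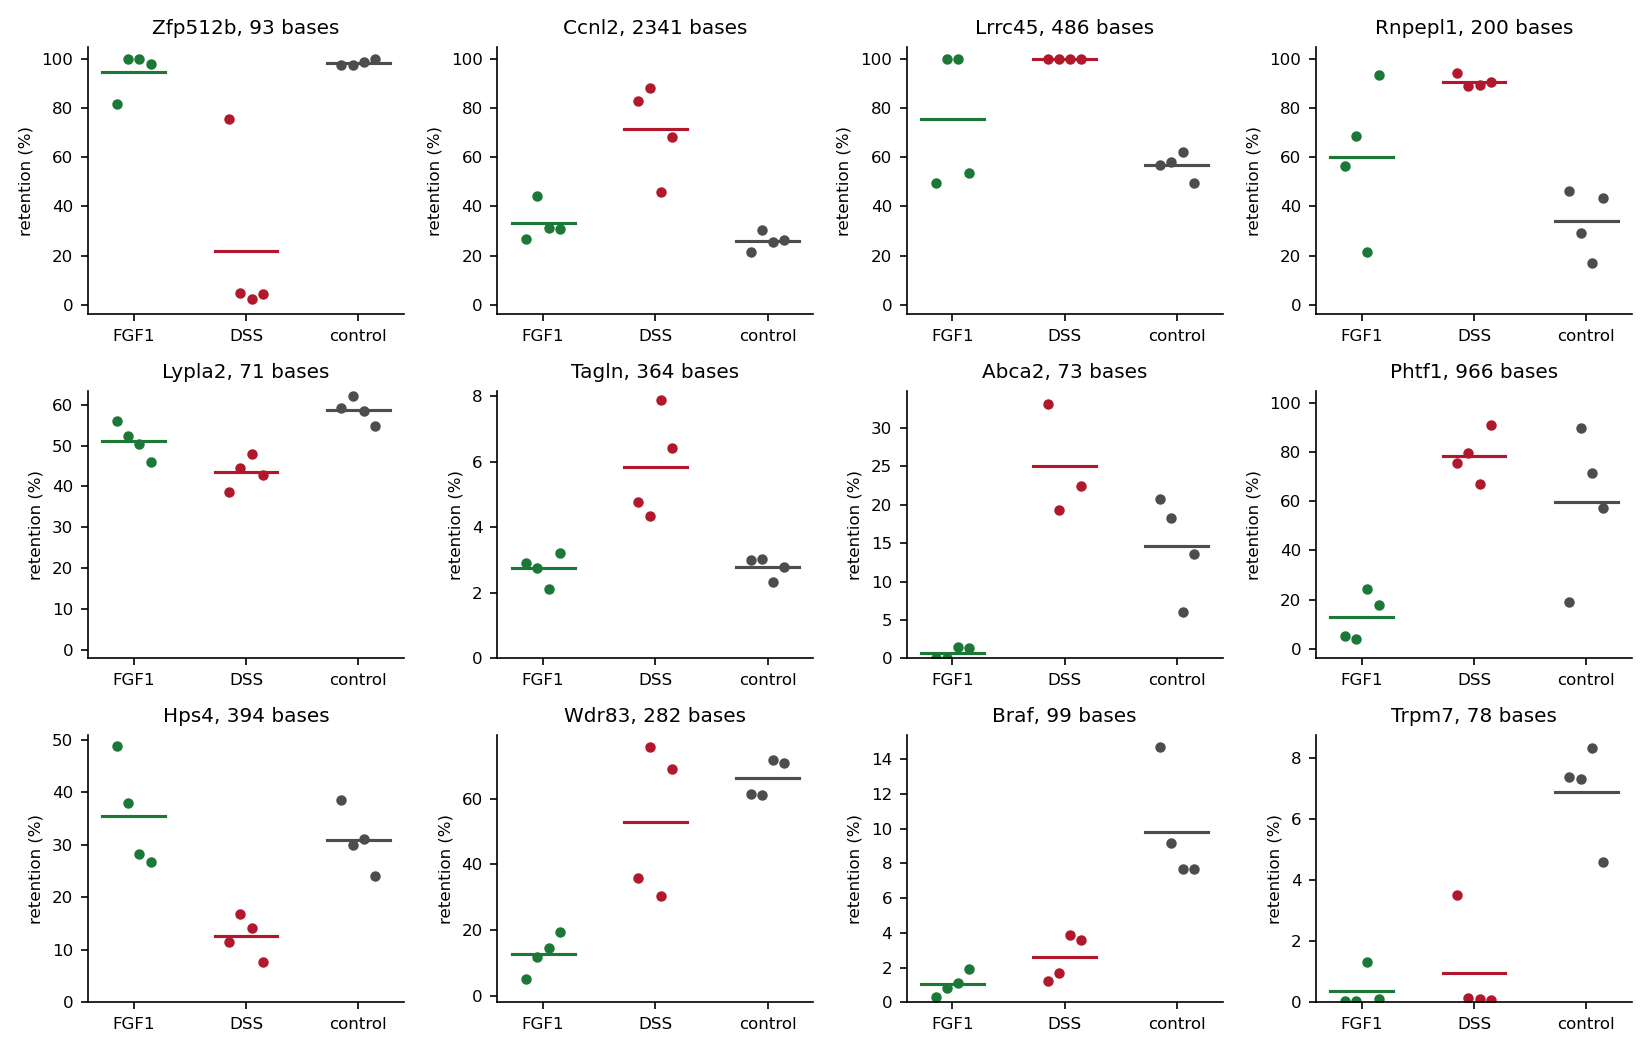
Retention (%) in each library (points) with group means (lines) for 12 introns named by small unadjusted p, with FGF1, DSS and control from left to right in each panel and a vertical scale of its own per panel. DSS libraries stand apart for Ccnl2, Hps4 and Tagln, FGF1 libraries for Wdr83 and Abca2, and control libraries for Braf, while none of the 12 passed the adjusted threshold.

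Gene groups were described by counts and medians. No intron of any of the 17 lists was called in any comparison (limma). Over all tested introns, the shares at an unadjusted p under 0.05 were 5.79% for DSS against control, 5.25% for FGF1 against DSS and 3.73% for FGF1 against control. In 53 tested introns of splicing factor genes the median difference on the log2 odds scale was -0.07 for DSS minus control, -0.14 for FGF1 minus DSS and -0.09 for FGF1 minus control, against 0.01, 0.03 and 0.03 over all tested introns. In the 27 introns of the detained-intron list it was 0.14, -0.14 and 0.00, with 4, 3 and 0 at an unadjusted p under 0.05. In the 44 introns of chromatin and transcription genes it was -0.11, -0.03 and -0.19. In the 23 introns of zinc finger genes it was 0.15, 0.18 and 0.70, with 1, 1 and 0 at an unadjusted p under 0.05. In the 40 introns of ubiquitin and proteasome genes it was -0.09, -0.05 and 0.06, with 3, 1 and 1 at an unadjusted p under 0.05. That count was 3, 2 and 1 for the splicing factor introns and 1, 1 and 0 for the chromatin and transcription introns.

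For the other lists the same 3 medians were -0.03, 0.12 and 0.05 for the 19 ribosomal protein introns, 0.00, 0.07 and 0.00 for 20 introns of translation factor and tRNA synthetase genes, and 0.14, 0.08 and 0.11 for 35 introns of solute carrier genes. They were -0.25, 0.21 and -0.02 for 17 introns of mitochondrial ribosome and import genes, and 0.06, 0.06 and 0.26 for 4 introns of respiration genes. They were 0.30, -0.25 and -0.16 for 11 introns of cell cycle and DNA repair genes, and 0.09, -0.25 and -0.10 for 10 introns of immune and antigen presentation genes, where the first median was 0.88 with the smooth muscle score added to the model. Counts at an unadjusted p under 0.05 were 0, 1 and 1 for ribosomal protein introns and 0, 2 and 0 for the translation list. They were 3, 0 and 0 for solute carriers, 1, 1 and 1 for mitochondrial ribosome and import, and 0, 0 and 0 for respiration. Cell cycle and DNA repair genes had 1, 1 and 0, and immune and antigen presentation genes 2, 0 and 1.

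Genes of FGF signalling had 5 tested introns, among them those of Braf, Fgfr3, Hras and Ptpn11, with medians of 0.22, -0.03 and 0.69, and 2, 0 and 2 of them at an unadjusted p under 0.05. With the smooth muscle score added to the model the first of these medians was 1.75. Fgfr3, named here after its values were seen, is an FGF receptor gene, and its 83-base intron averaged 15.9% ± 4.19 in FGF1, 17.7% ± 10.4 in DSS and 4.57% ± 9.01 in control libraries. The control SD is nearly the largest that values with this mean can have, so a single control library carries most of that mean.

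Genes of protein folding in the endoplasmic reticulum had 8 tested introns in only 2 genes, Hyou1 and Syvn1, with medians of 0.19, -0.38 and -0.19, and 3, 5 and 0 of them at an unadjusted p under 0.05. At 3 FPKM or more, and with 1 pair for each gene, the first 2 of these medians were 0.89 and -1.30. Syvn1 encodes a ubiquitin ligase of that compartment. Its 517-base intron, chosen after its values were seen, averaged 10.5% ± 11.3 in FGF1, 33.0% ± 5.36 in DSS and 14.0% ± 7.43 in control libraries, with an adjusted p of 0.539 for FGF1 against DSS in limma. Several Syvn1 introns share their transcripts and are not independent. The 5 tested introns of smooth muscle and matrix genes, in Col1a2, Fn1, Tagln and Tpm2, had medians of 0.51, -0.62 and -0.01, with 2, 4 and 1 at an unadjusted p under 0.05, and smooth muscle and matrix markers differed between the groups as given above.

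No intron of the mucus and goblet cell list was among the 2866. The absorptive colonocyte list had 1, in Ceacam1, an adhesion molecule gene. It averaged 2.86% ± 0.747 in FGF1, 2.89% ± 1.69 in DSS and 2.69% ± 0.495 in control libraries (SD, n = 4 each), and the adjusted p was 1 in each comparison (limma).

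The FPKM of the retaining and of the splicing forms was tested as log2(FPKM + 1) with limma, which understates the change of low transcripts. In DSS against control, 0 of the 1126 retaining forms of single introns rose and 3 fell, and with the replicate number as a block, or with the smooth muscle score in the fit, 0 were called. Over the retaining or including forms of all event types, 0.0933% rose and 0.48% fell. The share of member forms called was 0.266%.

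The 3 retaining forms that fell were those of Rnpepl1, Hdac7 and Pcolce. Hdac7, a histone deacetylase gene, with a 1273-base intron, had 3.10, 3.59, 1.49 and 3.21 FPKM in FGF1 libraries, 1.23, 1.00, 1.3 and 0.987 FPKM in DSS libraries, and 4.10, 4.25, 6.11 and 4.63 FPKM in control libraries. All DSS libraries lay below all others, with a log2 difference of DSS minus control of -1.43 ± 0.20 (SE) and an adjusted p of 0.0148 in limma. Its retention averaged 59.9% ± 36.7 in DSS and 92.7% ± 1.79 in control libraries, with an adjusted p of 0.751 in limma. Pcolce, which encodes an enhancer of collagen processing, averaged 0.410 ± 0.268 FPKM in DSS and 3.12 ± 0.439 FPKM in control libraries, and its spliced form was also lower in DSS, at 1.78 against 6.03 FPKM.

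The Rnpepl1 retaining form keeps a 373-base intron and splices the 200-base and 811-base introns. It had 8.69, 4.16, 19.2 and 1.08 FPKM in FGF1 libraries, 0.961, 1.62, 1.14 and 1.19 FPKM in DSS libraries, and 10.3, 16.5, 23.3 and 12.7 FPKM in control libraries. DSS libraries lay below control libraries without overlap, with a log2 difference of DSS minus control of -2.85 ± 0.55 (SE) and an adjusted p of 0.0490 in limma.

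Among the 1957 splicing forms of single introns, 2 rose and 16 fell in DSS against control, 0.92% of them in all. Over the splicing or skipping forms of all event types 0.137% rose and 0.907% fell, so the members' count is near the background. Those that rose were Prodh, which encodes proline dehydrogenase, and Exosc9, a subunit of the RNA exosome. Prodh had 7.47, 12, 5.34 and 9.14 FPKM in FGF1 libraries, 14.9, 17.1, 19.0 and 20.5 FPKM in DSS libraries, and 6.36, 5.63, 4.40 and 6.18 FPKM in control libraries. All DSS libraries were above all others, while its retention averaged 7.45% ± 2.30 in DSS and 11.2% ± 3.28 in control libraries.

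Those that fell included forms of Vip (a gut neuropeptide), Col1a2 with 2 forms and Thbs2 (matrix proteins), Stab1 (a scavenger receptor of macrophages), Tie1 (an endothelial receptor) and Ilk (a kinase at cell adhesions). Vip averaged 3.74 ± 2.02 FPKM in DSS and 24.3 ± 8.50 FPKM in control libraries. Col1a2 averaged 4.84 ± 3.79 FPKM in DSS and 31.1 ± 3.08 FPKM in control libraries for the form that splices its 692-base intron (SD, n = 4 each). The spliced form of the 2341-base Ccnl2 intron also fell, with 1.07, 1.02, 12 and 2.32 FPKM in DSS libraries and 31.8, 21.5, 40.4 and 38.1 FPKM in control libraries, a log2 difference of -3.17 ± 0.53 (SE) and an adjusted p of 0.0241 in limma. The other forms that fell were those of Rnpepl1, Sept4, Slc9a3r2, Fads3, Pltp, Npr2, Spon2 and Car11. Smooth muscle, matrix and leukocyte markers were lower in DSS libraries too, as given above. With the smooth muscle score in the fit, 0 splicing forms and 0 retaining forms were called, and with the replicate number as a block 0 and 0 were called as well. Leaving out 1 library gave between 2 (without the third control library) and 37 (without the first DSS library) called splicing forms, and between 0 (without the fourth DSS library) and 7 (without the first DSS library) called retaining forms. Over all event types these fits called 8 and 173 splicing or skipping forms, and 9 and 75 retaining or including forms.

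In FGF1 against DSS no retaining and no splicing form of a single intron was called in limma. An unadjusted p under 0.05 was found for 86 (7.64%) and 147 (7.51%), against 8.15% and 8.34% of the forms of all event types. At the adjusted threshold, 0.0133% of the retaining or including forms of all event types rose and 0.0133% fell. Of the splicing or skipping forms 0% rose and 0% fell. In FGF1 against control again none was called. An unadjusted p under 0.05 was found for 72 (6.39%) and 168 (8.59%), against 7.42% and 8.20% of the forms of all event types. At the adjusted threshold, 0.0133% of the retaining or including forms of all event types rose and 0% fell. Of the splicing or skipping forms 0% rose or fell.

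The spread between libraries of a group sets what can be seen. The SD of retention within a group had a median over introns of 5.54 percentage points in FGF1, 6.17 in DSS and 5.36 in control libraries. For 533 of the 1723 introns with a value in all 12 libraries, retention was above 50% in some libraries and below 50% in others. For 160 it was above 50% in every library and for 244 it was below 10% in every library. The median distance between the lowest and highest of the 12 libraries was 23.1 points. The measurement also depends on which transcripts are listed. For 700 of the 2866 introns (24.4%) at least 1 annotated transcript that splices the intron was listed in no library, and 2538 (88.6%) had 1 retaining transcript. Library strand is not given in the sources used here, so that reads of an antisense gene and of a retained intron cannot be told apart.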

How the data were processed

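RNA of 12 colon libraries (3 groups of 4) was analysed from the authors' deposited event tables. Oligo(dT) beads were used for library preparation, per the labels' protocols. The build GRCm38 and the tools StringTie 1.3.4d, HISAT2 2.0.4, cutadapt 1.9 and edgeR are those of the submitters' processing notes, and the role of each is not given in the sources used here. The deposited values are FPKM per transcript, per the file headers, and each transcript was given its listed FPKM in a library, or 0 where it was not listed there. The files hold no read counts, so depth and counting error are unknown.

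Each transcript entered a form once per library. Retention was fitted with limma 3.58.1 in R 4.3.3, with all 12 libraries in 1 model, a prior variance trended on the level, two-sided tests and Benjamini-Hochberg adjustment over every tested ON and OFF pair. A library counted at 1 FPKM or more of both forms together, and 0.02 was added to both shares. Form levels were fitted as log2(FPKM + 1) for forms with a mean of at least 1 FPKM. The scripts were tested on simulated data. Introns, reading frames and sequences came from GENCODE vM21 transcripts of GRCm38, without a genome, using Python 3.11.15, pandas 2.3.3, numpy 2.4.6 and scipy 1.17.1.

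Named were the 10 introns with the smallest unadjusted p in each comparison (none was called), the 10 with the highest FPKM of the retaining form, the 3 longest, the shortest and those of the detained-intron list. A few of these introns are not reported here. The members and lists were chosen with earlier results of these data known. Alternatives changed the share offset, scale, level minimum, prior, samples, covariate, replicate block, transcript sets and the use of listed introns only.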

Additional observations from a re-analysis of the deposited data

Results flagged for a closer look

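In 24 of 191 groups of 4 libraries (12.6%) among the named introns, 1 library stood far from the other three (its gap to the nearest of them, over the group's whole range, above Dixon's critical value). Chance gives such a gap in about 1 of 20 groups only where values are independent and normally distributed. Retention is a bounded share, and some of its values stand for unlisted introns. Some of the named introns were chosen by small p, and introns of 1 gene share transcripts. The share of 12.6% therefore cannot show whether such libraries were more frequent than by chance.

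Single DSS libraries stood apart at 75.7% for Zfp512b, 3.51% for Trpm7 and 20.5% for Gas5, all in the first DSS library. The same library had 93.7% for the 403-base Rpl3 intron. Other DSS libraries stood apart at 79.6% for Bsg, 36.3% for the gap in Abhd1 and 2.93% for the 253-base intron of Ccnl1. For Bsg all other DSS libraries were at 100% and did not list the intron, so the library set apart is the one with a listed value. The third DSS library stood apart at 100% (not listed there, with the spliced form taken as 0) for the 1125-base intron of Clk2.

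Single FGF1 libraries stood apart at 81.7% for Zfp512b, 1.32% for Trpm7, 16.5% for Fth1 and 16.7% for Crtc1. Others were at 89.7% for the gap in Oaz2, 3.96% for Srsf7, 94.3% for the 2473-base intron of Clk3 and 21.3% for its 2100-base intron.

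Single control libraries stood apart at 0.232% for Fn1, 58.2% for Gas5 and 83.8% for Bsg, all in the second control library. Others were at 38.5% for Ddx5, 32.6% for Crtc1, 27.8% for the gap in Tctn2, 73.2% for the 276-base intron of Clk3 and 50.2% for its 2100-base intron.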

How the results depend on the processing

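No intron was called in any comparison with the replicate block, the smooth muscle score as a covariate, another share offset, percentage points, at least 3 FPKM, values in all 12 libraries, or every listed transcript that spans or splices the intron (an alternative chosen after seeing the data). Between DSS and control, 1 intron was called with the log2 ratio of both forms, 1 without a filter on level, 4 with only the 2 groups compared, 8 without DSS libraries 3 and 4, and 1 without the third control and FGF1 libraries. The calls over all pairs were 5 of 13244, 10 of 13244, 17 of 8817, 20 of 9037 and 13 of 8742 in the same order. Between FGF1 and DSS, 1 intron was called with a constant prior, 1 with only the 2 groups, 5 without DSS libraries 3 and 4, and 1 without the third control and FGF1 libraries. The calls over all pairs were 6 of 8681, 11 of 8665, 23 of 9037 and 8 of 8742. Between FGF1 and control, the log2 ratio and the fit without the third control and FGF1 libraries each gave 1. The calls over all pairs were 3 of 13244 and 7 of 8742. Leaving out 1 library gave 0 to 5, 0 to 3 and 0 to 1 called introns in the 3 comparisons, and 2 to 14, 1 to 14 and 1 to 11 calls over all pairs. The 3 retaining forms called in DSS against control became 0 with the replicate block, 0 with the covariate, 6 with a constant prior, 1 with a pseudocount of 0.1 FPKM (chosen after seeing the data) and 0 to 7 with 1 library left out. Over all event types, 43 called retaining or including forms became 4, 0, 53, 27 and 9 to 75. For FGF1 against DSS, 1 retaining form of a single intron was called with only the 2 groups, 2 without DSS libraries 3 and 4 and 0 to 1 with 1 library left out. Over all event types these were 4, 5 and 0 to 10. The 18 splicing forms became 0 with the replicate block, 0 with the covariate, 10 with only the 2 groups, 2 without DSS libraries 3 and 4, 3 without the third control and FGF1 libraries, and 2 to 37 with 1 library left out. Over all event types, 84 called splicing or skipping forms became 0, 0, 32, 5, 9 and 8 to 173. For FGF1 against DSS, 2 splicing forms of single introns were called without DSS libraries 3 and 4 and 0 to 3 with 1 library left out. Over all event types these were 5 and 0 to 8. Deviations of same-numbered libraries correlated between -0.0769 and 0.0469. In FGF1 against control, the control library that correlated best with FGF1 libraries 1, 2 and 3 had the same number. Correlations this small cannot decide whether the numbers pair the libraries. The median retention averaged 17.0% over introns valued in all 12 libraries and 15.9% at 3 FPKM in FGF1, and 15.4% at 3 FPKM in control. The FGF1 minus control difference of Abca2 turned to 0.00899 on the log2 ratio. Counting every listed transcript that spans or splices the intron, mean retention was 19.3% for Clk4 (191 bases), 2.48% for Srsf5 (201), 57.5% and 52.8% for Clk2 (691 and 346), and 64.5% and 72.6% for Clk3 (276 and 2100). With listed introns only, no intron was called, and mean retention was 15.8% for the 1664-base intron of Ccnl2 and 27.8% for the gap in Tctn2. Of the 10 introns with the smallest p, 2 could not be fitted that way in DSS against control, 4 in FGF1 against DSS and 2 in FGF1 against control, since too few libraries list them. The cause of the other changes was not tested. Over all settings 795 differences of named introns kept their direction and side of the threshold and 15 passed it. These differences were chosen by small p in the same libraries that the settings reuse. The tally is therefore no independent check of them.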
